A study of Mus musculus with 2 samples.

Results

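Interferon-stimulated genes, the genes that cells switch on in answer to interferons, were followed as a list of 37 symbols in single-cell RNA sequencing of mouse colon crypts. Members were chosen by symbol, with a floor of 20 UMIs over both libraries, where a UMI is a unique molecular identifier and stands for 1 captured RNA molecule. Of the 31053 genes in the matrices, 36 carried a listed symbol and all 36 passed the floor; Mx2 was not analysed here. The members were parted by their best known inducer into 16 mainly type I genes, 12 mainly type II genes and 8 genes shared by both types. The Mettl14_cKO library came from C57BL/6 mice of 4 weeks with floxed M14 alleles, read here as Mettl14, a subunit of the enzyme that methylates adenosine in RNA, and with Villin-Cre. Villin drives the Cre recombinase in gut epithelial cells, so immune cells of these crypts keep the gene. The control library came from C57BL/6 mice of the same age that carried the same floxed alleles, written M14(f/f), with no Cre named in the labels. Isolated colonic crypt cells of 3 mice were pooled per genotype into 1 10x Genomics library, so no comparison below has a replicate or a test, and every interval covers counting error only.

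Type I interferons bind a receptor built from Ifnar1 and Ifnar2 and act through a complex with Stat2 and Irf9 that binds a DNA element called the ISRE, the interferon-stimulated response element. Type III interferons, or lambda interferons, bind Ifnlr1 with Il10rb, use the same complex, and are a main antiviral signal of gut epithelium. Type II interferon, the product of Ifng, binds Ifngr1 with Ifngr2 and acts at a DNA element called GAS, and through Irf1. Many interferon-stimulated genes answer to more than 1 type, so the parting of the list is one of emphasis.

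The Mettl14_cKO library held 9225 barcodes with a median of 3872 UMIs, of which 7072 cells were kept, and the control library held 10181 barcodes with a median of 9085 UMIs, of which 9077 cells were kept. The libraries shared 33 barcodes, 15 of them among the kept cells. Mettl14 was at 5.03 CPM (UMIs of a gene per 1 M UMIs) in the Mettl14_cKO library and 4.76 CPM in the control library, so the targeted gene's RNA was not lower in the library labelled as carrying Villin-Cre, and the groups are named by their labels alone. A tag outside the deleted exons would remain, so this level checks neither the deletion nor the label. Xist, which is transcribed from an inactive X, was at 312 CPM in the Mettl14_cKO library and 0.0644 CPM in the control library, and 4 genes of the Y chromosome summed to 0.0700 CPM in the Mettl14_cKO library and 103 CPM in the control library. Genotype and sex of the pooled mice therefore cannot be told apart. Joint clustering gave 28 clusters, and 89.2% of the 14758 epithelial-like cells lay in 17 clusters with at least 90% of their cells from 1 library. Cells of a class thus came mostly from different clusters in each library. Cycling-like cells numbered 2304 in the Mettl14_cKO library (mainly clusters 2 and 7) and 2563 in the control library (clusters 3, 8 and 9). Goblet-like cells numbered 2696 in the Mettl14_cKO library (clusters 1, 5 and 11) and 3648 in the control library (clusters 0, 4, 12, 16 and 17). Colonocyte-like cells numbered 350 in the Mettl14_cKO library (cluster 18) and 1640 in the control library (clusters 6 and 10). Enteroendocrine-like cells numbered 389 in the Mettl14_cKO library and 229 in the control library, in the shared clusters 15 and 25. The median share of mitochondrial UMIs was higher in 3 of these classes of the Mettl14_cKO library, as in cycling-like cells with 6.89% in Mettl14_cKO cells and 4.01% in control cells, and its part in the results was not tested. Epcam, which marks epithelial cells, was at 1882 CPM in the epithelial-like cells of the Mettl14_cKO library and 2989 CPM in those of the control library.

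Most interferon-stimulated genes were lower in the Mettl14_cKO epithelium, across both inducer types, while a few members stood out in the other direction. Sizes here are log2 ratios of (CPM + 1), with Mettl14_cKO on top and control below, averaged over 4 classes, the cycling-, goblet-, colonocyte- and enteroendocrine-like cells. In such sums over cells, fewer cells with a gene's RNA and less RNA per cell cannot be told apart. By this measure 25 of the 36 members were at least 2-fold lower in the Mettl14_cKO library, where 3.17% of 15096 genes were. Another 3 members were at least 2-fold higher, where 5.42% of all genes were, and 8 lay between. The median size of the members was -1.31, beside 0.02 for all genes. Among the mainly type I genes 12 of 16 were at least 2-fold lower and 1 higher, with a median of -1.36. Among the mainly type II genes 8 of 12 were lower and 1 higher, with a median of -1.40. Among the shared genes 5 of 8 were lower and 1 higher, with a median of -1.05. The lowest sizes belonged to Isg15 (-3.28), Iigp1 (-3.26), Oasl2 (-2.74), Ido1 (-2.74), Ifi44 (-2.71) and Xaf1 (-2.50), and the highest to Ubd (5.13), Ifitm1 (2.06) and Ifit1bl1 (1.20). Whatever their UMI count, 26 members were below control in each of the 4 classes, where 18.1% of all genes were, and 3 were above control in each, where 20.1% of all genes were. Car1, a carbonic anhydrase and colonocyte marker, was lower in the same classes. Car1 was at 792, 96.0, 22541 and 607 CPM in Mettl14_cKO cells, against 2435, 425, 65237 and 736 CPM in control cells, in the order cycling-, goblet-, colonocyte- and enteroendocrine-like. Its part in the members' results was not tested.

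The classes differed in how many members were lower. In cycling-like cells 24 of 36 members with at least 20 UMIs were at least 2-fold lower and 2 higher, where 4.7% of all genes were lower and 7.33% higher. In goblet-like cells 22 of 35 were lower and 3 higher, where 4.55% of all genes were lower and 5.67% higher. In colonocyte-like cells 26 of 34 were lower and 2 higher, where 8.89% of all genes were lower and 9.73% higher. In enteroendocrine-like cells 7 of 24 were lower and 4 higher, where 7.42% of all genes were lower and 12.8% higher. The members' median size was -0.41 in enteroendocrine-like cells, and -1.48 (colonocyte-like), -1.55 (cycling-like) and -1.68 (goblet-like) elsewhere. The unnamed epithelial cells were mainly cluster 20 in the Mettl14_cKO library (led by Ccl20) and cluster 13 in the control library (led by Tgm3). This label only gathers epithelial-like clusters that no marker list named, so these clusters were not matched as a cell type. Between them 19 of 31 members were lower in the Mettl14_cKO library and 3 higher, where 11.9% of all genes were lower and 13.1% higher. With all epithelial-like cells pooled, 27 of 36 members were lower and 2 higher, where 3.95% of all genes were lower and 6.45% higher. The enteroendocrine-like class was the shallowest of the 4, with 2143764 UMIs in Mettl14_cKO cells and 2260968 UMIs in control cells.

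**Figure D1:**
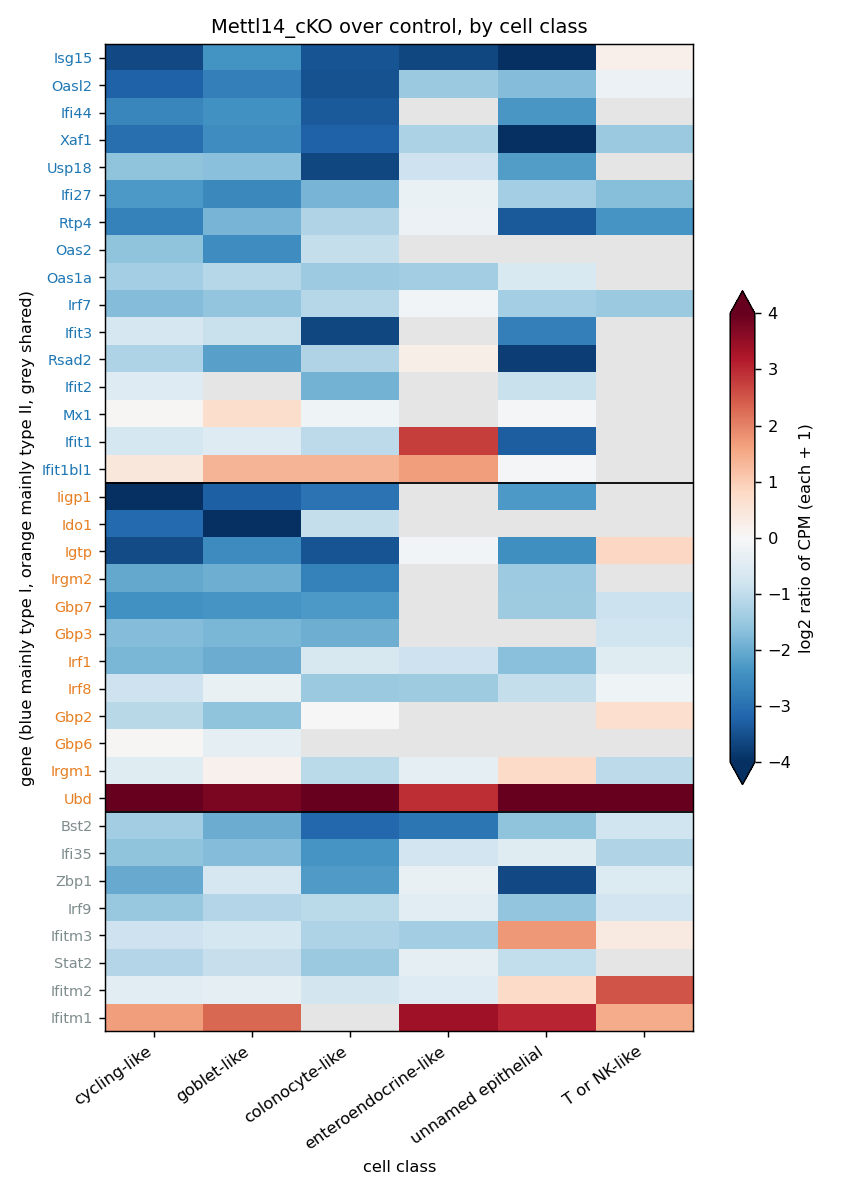
Size as the log2 ratio of (CPM + 1), with Mettl14_cKO over control, for the 36 members (rows, ordered by mean size within each inducer list) in 6 cell classes (columns); grey cells had under 20 UMIs over both libraries and the colours end at 4 on either side. Blue fills most of the 3 left columns, and Ubd is red in every column.

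The promoters of the members show which of these DNA elements their letters hold, and those of 7 genes that the results below turn on are printed here. Each runs from 250 bases before to 50 bases after the gene's start in the RefSeq table of build GRCm38.p6, 5′ to 3′ on the strand of the gene, with motif matches in capitals; for Ifit1bl1 and Irf1, which have more than 1 start in the table, 1 window is shown.
Isg15, chr4:156200769-156201068, minus strand: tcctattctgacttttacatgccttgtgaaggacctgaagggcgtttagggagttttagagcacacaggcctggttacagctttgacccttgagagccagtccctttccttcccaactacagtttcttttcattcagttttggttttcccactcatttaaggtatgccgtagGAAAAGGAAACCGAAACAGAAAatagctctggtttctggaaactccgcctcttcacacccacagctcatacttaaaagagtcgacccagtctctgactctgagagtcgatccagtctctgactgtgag
Ifit1, chr19:34640639-34640938, plus strand: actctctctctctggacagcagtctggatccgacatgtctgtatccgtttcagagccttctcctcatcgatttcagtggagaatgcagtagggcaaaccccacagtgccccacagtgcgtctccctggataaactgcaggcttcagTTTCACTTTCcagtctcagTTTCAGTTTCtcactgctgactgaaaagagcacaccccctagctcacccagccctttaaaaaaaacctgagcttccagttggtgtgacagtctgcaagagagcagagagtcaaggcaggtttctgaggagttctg
Ifit1bl1, chr19:34601919-34602218, minus strand: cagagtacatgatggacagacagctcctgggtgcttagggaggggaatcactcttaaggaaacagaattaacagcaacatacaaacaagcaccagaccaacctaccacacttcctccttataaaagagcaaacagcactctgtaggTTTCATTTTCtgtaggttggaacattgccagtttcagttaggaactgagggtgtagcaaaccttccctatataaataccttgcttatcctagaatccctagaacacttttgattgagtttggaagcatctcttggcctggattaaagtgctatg
Igtp, chr11:58199306-58199605, plus strand: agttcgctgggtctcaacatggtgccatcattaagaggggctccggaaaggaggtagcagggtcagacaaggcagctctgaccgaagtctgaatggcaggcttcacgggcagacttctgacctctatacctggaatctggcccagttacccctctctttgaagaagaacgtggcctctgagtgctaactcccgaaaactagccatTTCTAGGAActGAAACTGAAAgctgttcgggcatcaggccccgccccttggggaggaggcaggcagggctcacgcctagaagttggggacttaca
Irf1, chr11:53769764-53770063, plus strand: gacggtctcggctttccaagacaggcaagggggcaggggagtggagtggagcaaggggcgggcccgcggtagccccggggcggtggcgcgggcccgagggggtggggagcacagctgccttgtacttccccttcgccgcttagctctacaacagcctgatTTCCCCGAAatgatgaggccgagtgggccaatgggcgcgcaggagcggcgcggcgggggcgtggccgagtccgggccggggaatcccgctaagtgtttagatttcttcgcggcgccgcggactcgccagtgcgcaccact
Ubd, chr17:37193642-37193941, plus strand: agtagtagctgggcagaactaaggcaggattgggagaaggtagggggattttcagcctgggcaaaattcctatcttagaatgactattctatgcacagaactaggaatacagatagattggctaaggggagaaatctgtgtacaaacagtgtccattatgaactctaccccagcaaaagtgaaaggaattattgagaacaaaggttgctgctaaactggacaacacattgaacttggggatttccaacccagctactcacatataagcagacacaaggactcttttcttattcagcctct
Ifitm1, chr7:140967826-140968125, plus strand: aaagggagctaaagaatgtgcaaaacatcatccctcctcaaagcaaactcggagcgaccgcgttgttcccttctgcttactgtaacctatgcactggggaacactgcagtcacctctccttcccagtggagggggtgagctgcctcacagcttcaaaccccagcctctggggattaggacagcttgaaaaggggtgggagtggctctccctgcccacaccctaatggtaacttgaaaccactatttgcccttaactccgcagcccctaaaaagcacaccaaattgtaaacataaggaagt
The ISRE was searched as TTTC, then any 2 bases, then TTTC, and GAS as TTCNNNGAA, each on both strands, and overlapping matches were counted apart. The Isg15 window holds 3 overlapping ISRE matches, on the strand opposite to the gene, and the Ifit1 window holds 2 on the gene's strand. Igtp holds a GAS match followed closely by an ISRE match, Ifit1bl1 holds 1 ISRE match and Irf1 holds 1 GAS match. No match lies in these windows of Ubd and Ifitm1, which says only that these letters are not there. The windows of Oasl2, Ifi44, Xaf1 and Irf7, lower in the mean and not printed, hold no match either. For Ifit1bl1, unlike the other printed genes, the bases just after the listed start were not found in the gene's annotated transcripts. Of the 36 members 27 were matched to the table, and 16 of the 27 (59.3%) held an ISRE match, where 3.99% of 27025 genes did. A GAS match lay in 10 of the 27 (37.0%), where 9.55% of all genes held one. ISRE matches occurred in 6 of 11 mainly type I genes, 6 of 9 mainly type II genes and 4 of 7 shared genes. GAS matches occurred in 2 of 11 mainly type I genes, 5 of 9 mainly type II genes and 3 of 7 shared genes. The median size was -1.11 for the 16 members with an ISRE match and -1.14 for the 11 without. It was -1.48 for the 10 members with a GAS match, of which 9 were at least 2-fold lower and 0 higher, and -1.05 for the 17 without, of which 9 were lower and 3 higher.

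Levels of the mainly type I genes are given in the order cycling-, goblet-, colonocyte- and enteroendocrine-like cells, as in all that follows. Isg15 was at 3.19, 7.46, 26.9 and 0.933 CPM in Mettl14_cKO cells, against 50.2, 43.3, 307 and 23.0 CPM in control cells. Isg15, an ubiquitin-like protein that is attached to other proteins during an antiviral response, was thus lower in all 4 classes of the Mettl14_cKO library, with counting intervals that did not overlap. In colonocyte-like cells it was at 26.9 CPM (22.2 to 32.2) in Mettl14_cKO cells and 307 CPM (300.1 to 314) in control cells, a ratio of 0.0874 (0.0723 to 0.105). Those levels rest on 118 UMIs in Mettl14_cKO cells and 7114 UMIs in control cells. Oasl2 was at 0.830, 1.43, 5.46 and 3.27 CPM in Mettl14_cKO cells, against 16.2, 15.3, 71.5 and 11.1 CPM in control cells. Oasl2 belongs to the oligoadenylate synthetase family, whose members sense or answer double-stranded RNA, and was lower in each class. Xaf1 was at 1.69, 3.25, 5.46 and 7.46 CPM in Mettl14_cKO cells, against 20.8, 22.5, 60.2 and 19.5 CPM in control cells. Xaf1, an interferon-induced promoter of cell death, was lower in each class too. Ifi44 was at 0.365, 0.598, 0.683 and 0 CPM in Mettl14_cKO cells, against 7.41, 7.52, 16.2 and 4.42 CPM in control cells. Its Mettl14_cKO levels rest on 11, 25, 3 and 0 UMIs, so that they were near the floor of detection.

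Irf7 was at 13.3, 22.3, 126 and 47.6 CPM in Mettl14_cKO cells, against 46.5, 68.4, 277 and 51.7 CPM in control cells. Irf7, the factor that amplifies type I interferon production, was lower in 3 classes, and its enteroendocrine-like intervals overlapped, with a ratio of 0.919 (0.698 to 1.21). Ifi27 was at 16.2, 23.6, 35.7 and 171 CPM in Mettl14_cKO cells, against 83.6, 146, 132 and 205 CPM in control cells. Ifi27 was likewise far below control in cycling-like and goblet-like cells and nearest to it in enteroendocrine-like cells, with a ratio of 0.834 (0.725 to 0.958) there. The remaining mainly type I genes that were at least 2-fold lower in the mean were Usp18 (-1.94), the enzyme that removes Isg15 from proteins, Rtp4 (-1.51), Oas2 (-1.39), Oas1a (-1.34), Ifit3 (-1.12) and Rsad2 (-1.09), which encodes the antiviral enzyme viperin. Oas1a shared 51.3% of the 60-base words at its transcript ends with other genes, so that its count may include reads of near copies.

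The Ifit genes, whose proteins bind foreign RNA, differed in direction. On chromosome 19 Ifit2, Ifit3 and Ifit1bl1 follow each other, with Ifit1 further along, and their sizes were -0.56, -1.12, 1.20 and 0.13. Ifit1bl1 was at 4.58, 11.4, 159.6 and 17.7 CPM in Mettl14_cKO cells, against 3.12, 3.86, 62.1 and 4.87 CPM in control cells. Ifit1bl1 was thus higher in all 4 classes of the Mettl14_cKO library, with a ratio of 2.57 (2.34 to 2.81) in colonocyte-like cells. That ratio sets mainly Mettl14_cKO cluster 18, at 186 CPM, against control clusters 6, at 26.5 CPM, and 10, at 122 CPM. Within cluster 6 Ifit1bl1 was lower in the Mettl14_cKO cells. Ifit1 was at 3.05, 6.36, 41.2 and 29.9 CPM in Mettl14_cKO cells, against 5.58, 9.53, 85.7 and 3.54 CPM in control cells. Ifit1 was lower in the first 3 classes and higher in enteroendocrine-like cells, where it had 64 UMIs in the Mettl14_cKO library and 8 UMIs in the control library. Ifit3 was at 0.0996, 0.0478, 0.683 and 1.40 CPM in Mettl14_cKO cells, against 0.757, 0.949, 19.99 and 0.442 CPM in control cells. Ifit3 had 3 UMIs in colonocyte-like cells of the Mettl14_cKO library and 463 UMIs in those of the control library, and at most 41 UMIs in any of the other 3 classes of either library. Mx1 was at 2.03, 11.8, 3.64 and 1.40 CPM in Mettl14_cKO cells, against 1.95, 6.87, 4.19 and 2.21 CPM in control cells. Mx1 differed by less than its counting error in all but goblet-like cells, and the RefSeq table lists this mouse gene as a transcribed pseudogene.

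**Figure D2:**
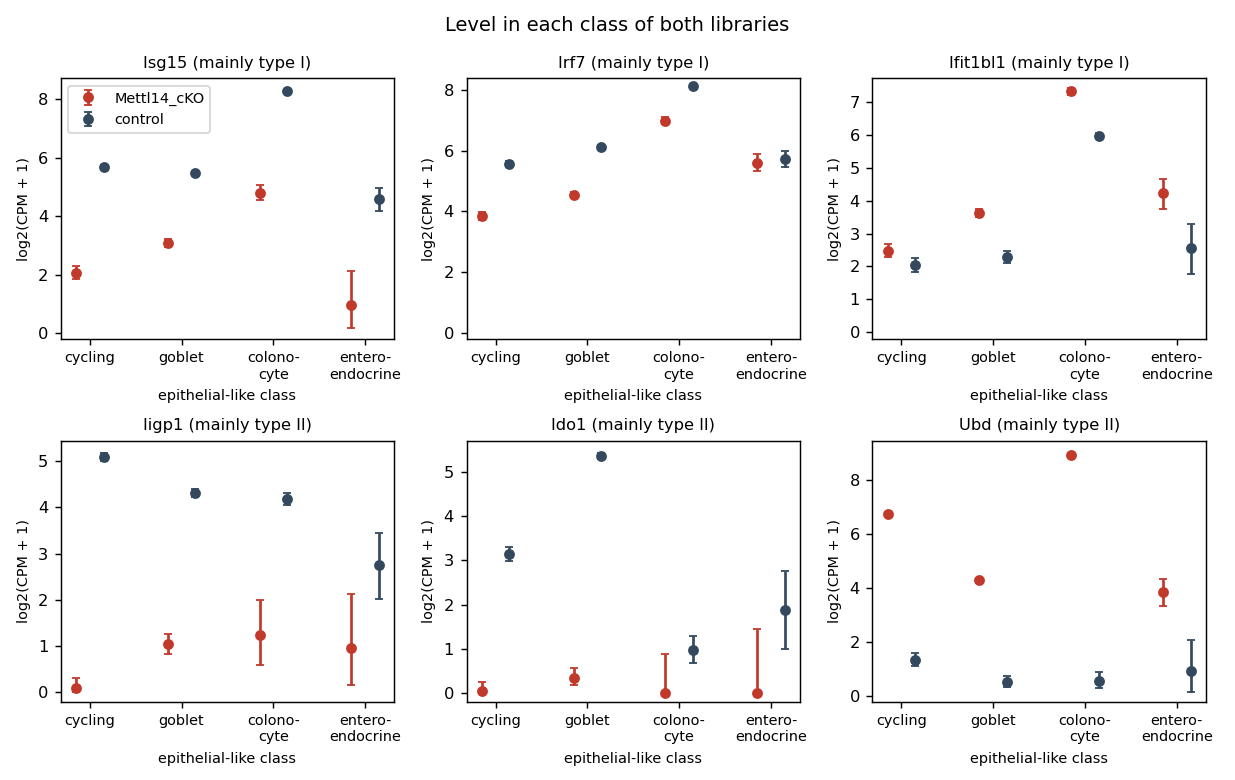
Level as log2(CPM + 1) in 4 epithelial-like classes of the Mettl14_cKO library (red) and the control library (dark blue) for 3 mainly type I genes (top) and 3 mainly type II genes (bottom); bars are exact 95% Poisson intervals. Isg15, Iigp1 and Ido1 lie lower in Mettl14_cKO cells and Ifit1bl1 and Ubd higher, with Irf7 level in enteroendocrine-like cells.

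Among the mainly type II genes, the interferon-inducible GTPases that act on vacuoles of intracellular microbes were mostly lower. Iigp1 was at 0.0664, 1.05, 1.37 and 0.933 CPM in Mettl14_cKO cells, against 33.1, 18.9, 17.2 and 5.75 CPM in control cells. Iigp1 had 2 UMIs in 2304 cycling-like cells of the Mettl14_cKO library and 1051 UMIs in 2563 of the control library, a ratio of 0.00200 (0.000242 to 0.00726). Igtp was at 0.731, 1.39, 2.28 and 5.60 CPM in Mettl14_cKO cells, against 19.8, 12.8, 34.5 and 6.19 CPM in control cells. Igtp lies beside Irgm2 on chromosome 11, and both were lower, with a size of -2.01 for Irgm2. Irgm1 was at 29.7, 37.7, 22.5 and 21.0 CPM in Mettl14_cKO cells, against 42.0, 33.4, 48.7 and 27.4 CPM in control cells. Irgm1, a regulator of the other GTPases of this family, was nearer to control, with a size of -0.44, and was above it in goblet-like cells, with a ratio of 1.13 (1.05 to 1.21). That ratio sets mainly different clusters against each other. Within the goblet-like clusters 0, 4 and 12 Irgm1 was at 20.9, 19.0 and 11.1 CPM in Mettl14_cKO cells, against 41.1, 22.4 and 39.6 CPM in control cells. Within goblet-like cluster 11 it was at 33.2 CPM in Mettl14_cKO cells and 15.5 CPM in control cells. Gbp7 was at 0.299, 0.669, 0.683 and 1.87 CPM in Mettl14_cKO cells, against 5.93, 7.61, 7.21 and 4.42 CPM in control cells. The guanylate-binding proteins Gbp7, Gbp3 and Gbp2, which lie close together on chromosome 3, had sizes of -2.00, -1.47 and -0.99. Gbp2 was at 0, 0.143, 1.82 and 0 CPM in Mettl14_cKO cells, against 1.13, 2.50, 1.86 and 1.33 CPM in control cells. Gbp2 was lower in cycling-like and goblet-like cells and level in colonocyte-like cells, at counts of 8 UMIs in Mettl14_cKO cells and 43 UMIs in control cells. Gbp6 had a size of -0.45, but shared 87.3% of its end words with other genes.

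Ido1, the enzyme that opens tryptophan breakdown, was seen mainly in control cells. Ido1 was at 0.0332, 0.263, 0 and 0 CPM in Mettl14_cKO cells, against 7.85, 40.3, 0.9499 and 2.65 CPM in control cells. Goblet-like cells had 11 UMIs in the Mettl14_cKO library and 1743 UMIs in the control library, a ratio of 0.00652 (0.00325 to 0.0117). Within the control library Ido1 was uneven among goblet-like clusters, at 74.3 CPM in cluster 0, 55.0 CPM in cluster 16 and 47.6 CPM in cluster 12, but 4.55 CPM in cluster 4 and 2.34 CPM in cluster 17. Irf1 was at 27.8, 27.1, 56.9 and 48.0 CPM in Mettl14_cKO cells, against 101, 109, 89.9 and 86.2 CPM in control cells. Irf1, the transcription factor that relays type II signals, was lower in all 4 classes. Irf8 was at 38.6, 33.3, 23.0 and 17.7 CPM in Mettl14_cKO cells, against 69.7, 41.5, 66.5 and 49.5 CPM in control cells. Irf8, a related factor best known from myeloid cells, was lower in each class too, with the smallest difference in goblet-like cells, a ratio of 0.803 (0.748 to 0.862).

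Ubd, also called FAT10, is an ubiquitin-like modifier that marks proteins for the proteasome and is induced by type II interferon together with tumour necrosis factor. Ubd was at 106, 18.7, 495 and 13.5 CPM in Mettl14_cKO cells, against 1.54, 0.440, 0.475 and 0.885 CPM in control cells. It was higher in all 4 classes of the Mettl14_cKO library, whereas the mean size of the other 11 mainly type II genes was below 0 in each case. The ratio was 68.5 (51.7 to 92.8) in cycling-like cells, 42.6 (27.1 to 71.1) in goblet-like cells and 1042 (581 to 2090.3) in colonocyte-like cells. In the unnamed epithelial cells, which were mainly different clusters in each library, it was at 659 CPM in Mettl14_cKO cells and 0.142 CPM in control cells. Across clusters of at least 100 cells Ubd ran over 9 clusters at 7.73 to 680 CPM in the Mettl14_cKO library and over 12 clusters at 0 to 2.22 CPM in the control library, without overlap. At 1700 UMIs per cell, 44.4% of colonocyte-like Mettl14_cKO cells and 0.104% of colonocyte-like control cells had an Ubd UMI. Without this thinning the shares were 65.7% in Mettl14_cKO cells, at a median of 9607 UMIs, and 0.610% in control cells, at a median of 11310 UMIs. Thinning left out 16 Mettl14_cKO and 77 control cells. In T or NK-like cells, where epithelial genes were counted too, the thinned share was 2.18% in the Mettl14_cKO library, at a median of 1938 UMIs. In the control library 0 of 170 such cells had an Ubd UMI, which allows up to 2.15% of cells with an Ubd UMI at this depth (exact binomial, counting error of 1 library only), and does not limit the share of cells that express the gene. The Ubd level of the T or NK-like cells of the Mettl14_cKO library was 19.4% of the epithelial level. Among epithelial genes this share was 10.8% for Epcam, 10.6% for Krt8, 10.4% for Krt18 and 18.4% for Vil1. The Vil1 share rests on 10 UMIs in those T or NK-like cells.

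Among the shared genes Ifitm1 was higher in the mean and the other 7 were lower. Ifitm2 was at 419, 247, 99.0 and 327 CPM in Mettl14_cKO cells, against 558, 317, 166 and 467 CPM in control cells. Ifitm3 was at 299.6, 98.0, 32.1 and 80.7 CPM in Mettl14_cKO cells, against 535, 161, 77.6 and 214 CPM in control cells. Ifitm2, Ifitm1 and Ifitm3, whose proteins block virus entry at membranes, lie side by side on chromosome 7 with sizes of -0.51, 2.06 and -1.05. Ifitm1 was at 3.15, 5.12, 0.910 and 13.99 CPM in Mettl14_cKO cells, against 0.315, 0.231, 0.0432 and 0.442 CPM in control cells. Ifitm1 was thus higher in the Mettl14_cKO library, from 95, 214, 4 and 30 UMIs in Mettl14_cKO cells and 10, 10, 1 and 1 UMIs in control cells. Its ratio was 10.0 (5.21 to 21.5) in cycling-like cells and 22.1 (11.8 to 46.8) in goblet-like cells. Ifitm1 is abundant in leukocytes, and the myeloid-like cells had 3442 CPM (3349 to 3538) in the Mettl14_cKO library, with 433 cells, and 1563 CPM (1126 to 2112) in the control library, with 10 cells. The part of free RNA from those cells in the epithelial Ifitm1 level was not tested. In the unnamed epithelial cells Ifitm3 was at 305 CPM in Mettl14_cKO cells, mainly cluster 20, and 91.4 CPM in control cells, mainly cluster 13. Those clusters were not matched as a cell type, so these levels do not show a reversal of the 4 named classes. Ifitm2 shared 38.3% of its end words with other genes.

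Bst2 was at 75.5, 48.6, 28.7 and 14.5 CPM in Mettl14_cKO cells, against 199, 196, 259 and 114 CPM in control cells. Bst2, or tetherin, which holds budding viruses at the cell surface, was lower in each class, with a size of -2.35. Stat2 was at 2.76, 5.02, 5.69 and 8.40 CPM in Mettl14_cKO cells, against 7.47, 10.5, 17.6 and 11.1 CPM in control cells. Stat2 and Irf9, which belong to the complex that binds the ISRE, had sizes of -0.98 and -1.05. Ifi35 (-1.62) and Zbp1 (-1.31), a sensor of left-handed nucleic acid, were at least 2-fold lower in the mean as well.

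The inducer types parted along the path from dividing cells to surface colonocytes. Within the Mettl14_cKO library 11 of 12 mainly type I genes with enough UMIs were at least 2-fold higher in colonocyte-like than in cycling-like cells, where 9.13% of all genes were higher and 26.8% lower, and their median log2 ratio was 1.92. Ifi44, Oas2, Usp18 and Ifit3 had under 20 UMIs over these classes there and were left out. Their log2 ratios were 0.30, 0.75, -0.12 and 0.61, each under 2-fold, so that the UMI floor raised this share and median. Within the control library 13 of 16 were higher, where 7.44% of 12569 genes were higher and 20.6% lower, with a median of 1.94. Of the mainly type II genes, 2 of 7 in the Mettl14_cKO library, Irf1 and Ubd, were higher and 0 lower, with a median of 0.29. In the control library 0 of 12 were higher and 1, Ido1, was lower, with a median of 0.08. Of the shared genes 1 of 8 was higher and 4 lower in the Mettl14_cKO library, against 2 of 7 higher, Stat2 and Zbp1, and 2 lower, Ifitm2 and Ifitm3, in the control library. For Isg15 the log2 ratio was 2.73 in the Mettl14_cKO library and 2.59 in the control library. For Irf7 it was 3.15 in the Mettl14_cKO library and 2.55 in the control library, and for Ifit1bl1 4.85 in the Mettl14_cKO library and 3.94 in the control library. For Irf1, of the type II list, it was 1.01 in the Mettl14_cKO library and -0.16 in the control library. The medians of the mainly type I genes lay close together, but over 12 genes in the Mettl14_cKO library and 16 in the control library. In the control library the genes left out of the Mettl14_cKO median had log2 ratios of 1.03 (Ifi44), 0.09 (Oas2), 1.91 (Usp18) and 3.58 (Ifit3). The medians are therefore not over the same genes and do not show an equal rise in both libraries.

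**Figure D3:**
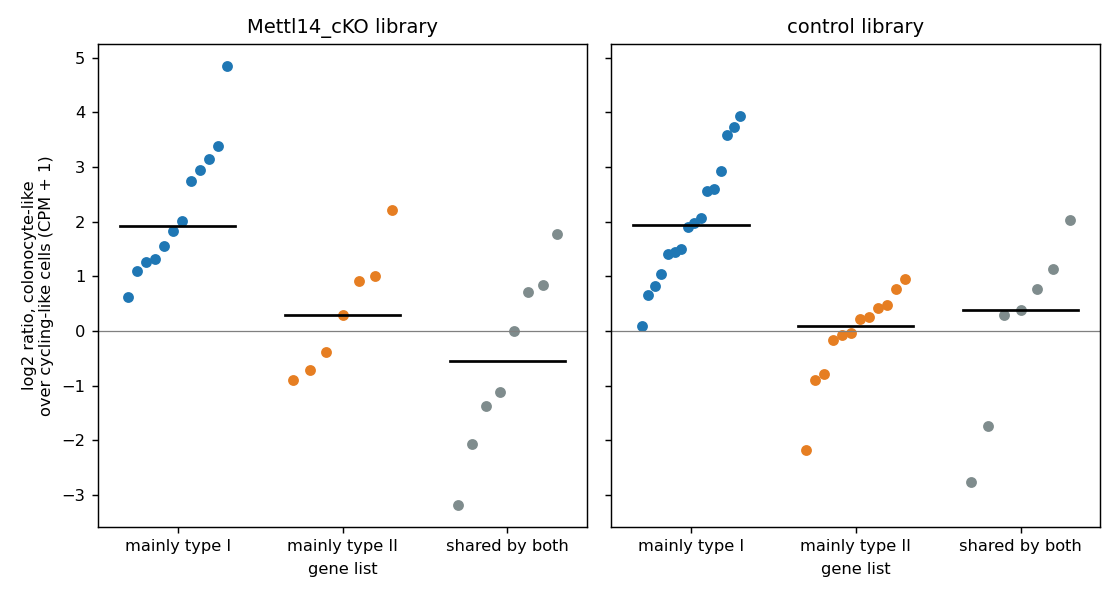
Log2 ratio of CPM (each plus 1), colonocyte-like over cycling-like cells, within the Mettl14_cKO library (left) and the control library (right); each point is 1 member with at least 20 UMIs over those classes of that library and the line is the median of its list. The medians are 1.92 (Mettl14_cKO) and 1.94 (control) for the mainly type I genes, and 0.29 (Mettl14_cKO) and 0.08 (control) for the mainly type II genes.

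Sums over each list were also read by cluster. In the Mettl14_cKO library the mainly type I genes summed to 61.5 CPM in cycling-like cluster 2, 59.1 CPM in cycling-like cluster 7 and 518 CPM in colonocyte-like cluster 18. The mainly type II genes summed to 224 CPM in cluster 2, 175 CPM in cluster 7 and 686 CPM in cluster 18 of the Mettl14_cKO library, of which Ubd made up 129, 74.5 and 575 CPM. In the control library the mainly type I genes summed to 228, 276 and 334 CPM in the cycling-like clusters 3, 8 and 9. The control sum was 957 CPM in colonocyte-like cluster 6 and 1692 CPM in colonocyte-like cluster 10, which was led by Mal and Aqp8 and had Krt20, a gene of mature surface cells, among its 10 leading genes. The mainly type II genes summed to 285 CPM in control cluster 6 and 283 CPM in control cluster 10, so that these control clusters differed in the type I sum and hardly in the type II sum. Likeness of genes was measured by Spearman's correlation, across clusters of 1 library, with the mean log2 level of each list, the gene itself left out. Across the 9 Mettl14_cKO clusters 9 of 16 mainly type I genes and 10 of 12 mainly type II genes lay closer to the type I list, so that the lists did not part there. Across the 12 control clusters 15 of 16 mainly type I genes lay closer to the type I list, with a median correlation of 0.77 with it and 0.14 with the type II list. Of the mainly type II genes 2 of 12 did, with medians of 0.08 with the type I list and 0.49 with their own.

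In goblet-like over cycling-like cells of the Mettl14_cKO library 6 of 30 members were at least 2-fold higher and 2 lower, where 4.72% of all genes were higher and 5.45% lower. In the control library 5 of 36 members were at least 2-fold higher and 1 lower, where 5.31% of all genes were higher and 6.34% lower; the 5 were Oas2, Mx1, Rsad2, Ido1 and Zbp1. In enteroendocrine-like over cycling-like cells of the Mettl14_cKO library 14 of 26 members were higher and 5 lower, where 22.0% of all genes were higher and 11.5% lower. In the control library 3 of 35 were higher and 6 lower, where 9.43% of all genes were higher and 2.35% lower. Rsad2, Usp18 and Ifi27 were higher and Isg15 lower in enteroendocrine-like cells of both libraries.

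Summed over each list, the mainly type I genes reached 59.5 CPM (56.8 to 62.3) in cycling-like Mettl14_cKO cells and 298 CPM (292 to 304) in control cells. In goblet-like cells the sum was 114 CPM (111 to 118) in Mettl14_cKO cells and 423 CPM (417 to 429) in control cells. In colonocyte-like cells it was 474 CPM (454 to 495) in Mettl14_cKO cells and 1229.6 CPM (1215 to 1244) in control cells. In enteroendocrine-like cells it was 334 CPM (310.4 to 359.9) in Mettl14_cKO cells and 395 CPM (369 to 421) in control cells, the closest of the 4. Ifi27 made up the largest part of both of these sums. In the same class Isg15, Oasl2 and Xaf1 were lower and Ifit1 higher in Mettl14_cKO cells. The mainly type II genes without Ubd summed to 98.8, 104, 109.9 and 96.6 CPM in the 4 classes of Mettl14_cKO cells, against 289.6, 278, 284 and 188 CPM in control cells. This sum differed little between the first 3 classes of each library. Irf1, Irgm1 and Irf8 made up most of it in each class of both libraries. In the Mettl14_cKO library Irf1 was higher and Irf8 lower in colonocyte-like than in cycling-like cells, so a level sum does not show level members. With Ubd the colonocyte-like sum of that list was 605 CPM in Mettl14_cKO cells and 284 CPM in control cells, so that this 1 gene turned the direction.

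**Figure D4:**
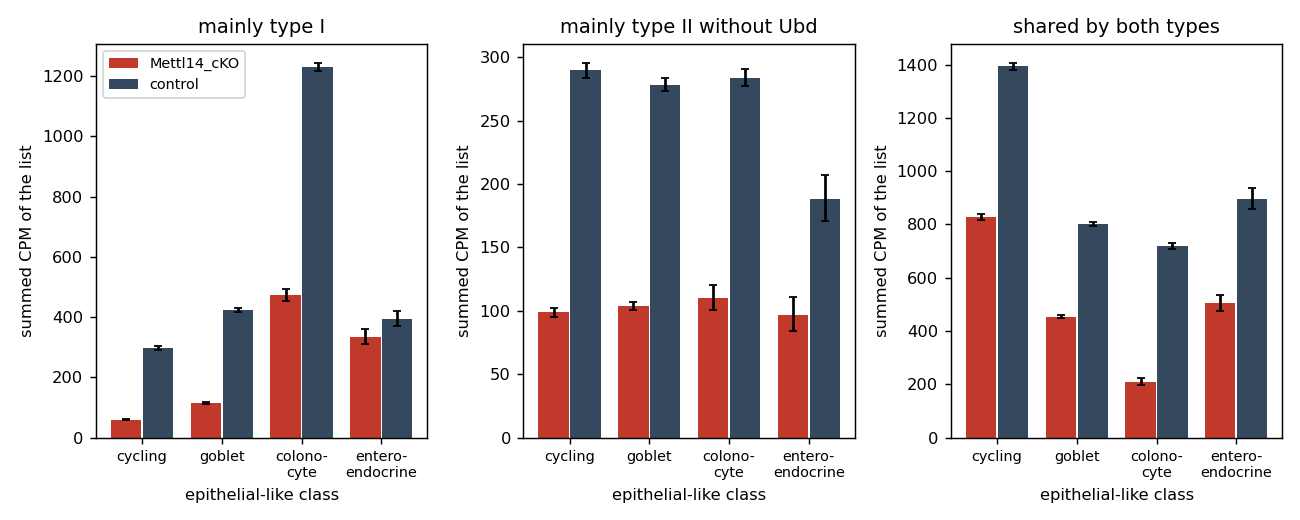
Summed CPM of each member list (bars from 0, with exact 95% Poisson intervals) in 4 epithelial-like classes of the Mettl14_cKO library (red) and the control library (dark blue), with Ubd left out of the mainly type II list. Type I sums are highest in colonocyte-like cells of both libraries, and type II sums run from 96.6 to 109.9 CPM in the Mettl14_cKO library.

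Single cells varied widely within a class. At 1700 UMIs or more per cell, the summed type I level of colonocyte-like cells had a median of 273 CPM in Mettl14_cKO cells and 768 CPM in control cells. The 10th to 90th percentile ran from 0 to 1793 CPM over 334 Mettl14_cKO cells and from 157 to 3459.8 CPM over 1563 control cells, so the libraries overlapped cell by cell. The share of cells with no type I UMI was 13.2% in Mettl14_cKO and 4.54% in control colonocyte-like cells, 39.4% in Mettl14_cKO and 12.5% in control goblet-like cells, and 58.96% in Mettl14_cKO and 26.1% in control cycling-like cells. Cells of the libraries differed in depth, and these shares were not thinned.

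**Figure D5:**
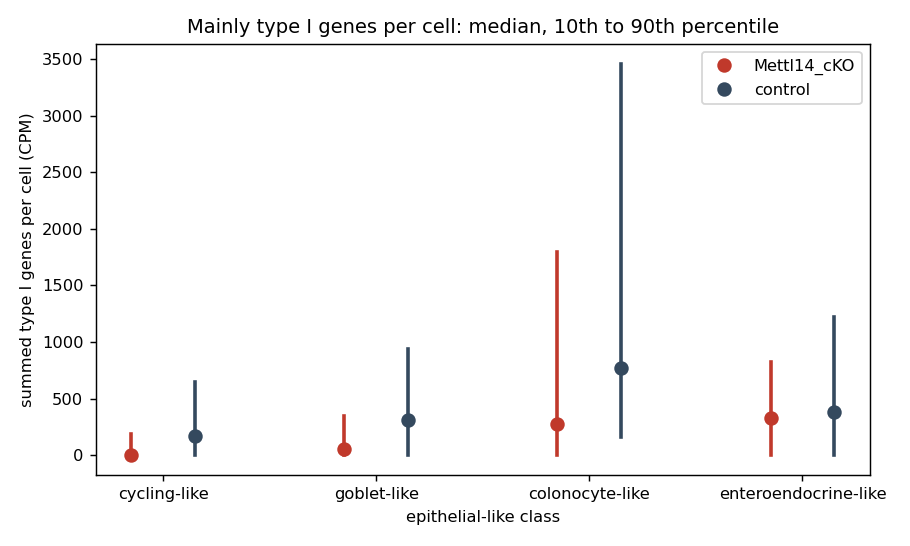
Summed CPM of the mainly type I genes per cell in 4 epithelial-like classes of the Mettl14_cKO library (red) and the control library (dark blue); points are medians over cells and lines run from the 10th to the 90th percentile of cells, not of animals. The colonocyte-like lines are the longest and overlap between the libraries.

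A few cells of the Mettl14_cKO library lay in clusters of at least 90% control cells, and 7 such epithelial-like clusters (0, 3, 4, 6, 8, 9 and 12) held at least 20 of them, which allowed a comparison cluster by cluster. They held 22 to 66 Mettl14_cKO cells and 520 to 1177 control cells each, and the clusters had been built without the members. The type I sum was lower in the Mettl14_cKO cells in 7 of 7 clusters, at 28.8 to 124 CPM in Mettl14_cKO cells and 228 to 957 CPM in control cells. Isg15 was lower in 7 of 7 as well, at 0 to 12.2 CPM in Mettl14_cKO cells and 20.8 to 249.6 CPM in control cells, and its ranges did not overlap. Irf7 was lower in 7 of 7, at 2.23 to 36.7 CPM in Mettl14_cKO cells and 34.3 to 184 CPM in control cells. The type II sum was lower in 7 of 7, at 98.0 to 167 CPM in Mettl14_cKO cells and 146 to 393 CPM in control cells, with overlapping ranges. Iigp1 was lower in 7 of 7, at 0 to 0.655 CPM in Mettl14_cKO cells and 3.34 to 44.7 CPM in control cells, and Ido1 had no UMI in the Mettl14_cKO cells of any of the 7. In clusters 3, 6 and 8 the control cells had only 0.808, 0.824 and 0.496 CPM of Ido1. The lack of a UMI in the few Mettl14_cKO cells of those clusters therefore says little. Irf8, at least 2-fold lower in the mean of the classes, was lower in 5 clusters and higher in clusters 0 and 4. In all epithelial-like clusters of at least 90% control cells, Irf8 was at 56.3 CPM (50.5 to 62.6) in Mettl14_cKO cells. It was at 56.0 CPM (54.6 to 57.5) in the control cells there, so no difference was seen. In the other epithelial-like clusters Irf8 was lower, at 32.1 CPM in Mettl14_cKO cells and 46.9 CPM in control cells. Irgm1 was lower in 7 of 7, at 11.1 to 22.3 CPM in Mettl14_cKO cells and 22.4 to 46.1 CPM in control cells. Over all epithelial-like clusters of at least 90% control cells its ratio was 0.476 (0.391 to 0.574). Over the other epithelial-like clusters the Irgm1 ratio was 1.31 (1.08 to 1.60), so its direction depended on the clusters compared. Ifit1bl1 was mixed, higher in clusters 9 and 12 and lower in 5 clusters. In cluster 9 it was at 7.20 CPM in Mettl14_cKO cells and 3.11 CPM in control cells, and in colonocyte-like cluster 6 at 2.04 and 26.5 CPM. Over all epithelial-like clusters of at least 90% control cells, with 276 Mettl14_cKO and 8183 control cells, its ratio was 0.181 (0.112 to 0.278). Over the other epithelial-like clusters the ratio was 0.676 (0.559 to 0.824). The share of each class enters both ratios. Ubd was higher in 5 clusters and had no UMI in the Mettl14_cKO cells of clusters 0 and 12, at 0 to 14.3 CPM in Mettl14_cKO cells and 0.284 to 2.22 CPM in control cells. Ifitm1 was higher in clusters 0, 3 and 8, lower in 3 clusters and without a UMI of either library in cluster 12. Over all epithelial-like clusters of at least 90% control cells it had 3 UMIs in Mettl14_cKO cells and 22 UMIs in control cells. The ratio was 2.35 (0.450 to 7.81), so these counts do not settle its direction. In goblet-like cluster 11, mostly of the Mettl14_cKO library, the type I sum was 66.9 CPM in 462 Mettl14_cKO cells and 135 CPM in 89 control cells.

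T or NK-like cells, which Villin-Cre does not target, numbered 391 in the Mettl14_cKO library (clusters 14 and 22) and 358 in the control library (mainly cluster 14). Among members with at least 20 UMIs, 6 of 21 were at least 2-fold lower in Mettl14_cKO cells and 3 higher, where 5.33% of 6564 genes were lower and 7.48% higher, and their median size was -0.54. Isg15 was at 185 CPM in Mettl14_cKO cells and 161 CPM in control cells, a ratio of 1.15 (0.909 to 1.46). In cluster 14, which both libraries shared with 177 Mettl14_cKO and 354 control cells, Isg15 was at 103 CPM in Mettl14_cKO cells and 162 CPM in control cells, a ratio of 0.635 (0.455 to 0.877). In cluster 22, which held 214 Mettl14_cKO and 4 control cells and was led by Trdc and Il17a, Isg15 was at 293 CPM. Within cluster 14 Irf7 was at 36.0 CPM in Mettl14_cKO cells and 85.5 CPM in control cells, Ifi27 at 84.7 CPM in Mettl14_cKO cells and 208 CPM in control cells and Bst2 at 64.9 CPM in Mettl14_cKO cells and 126 CPM in control cells. Ifitm2 was at 397 CPM in Mettl14_cKO cells and 54.8 CPM in control cells, and Ifitm1 at 214 CPM in Mettl14_cKO cells and 64.1 CPM in control cells, both higher in the Mettl14_cKO library. Epcam in that cluster was at 216 CPM in Mettl14_cKO cells and 775 CPM in control cells, so that an epithelial gene moved with the lower members; its part in the result was not tested.

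The wider interferon pathway was read from 58 further genes, of which 57 were in the matrices and 47 were tested in the mean. Of the 47, 20 were at least 2-fold lower in the Mettl14_cKO library and 3 higher, with a median of -0.47, where 3.17% of all genes were lower and 5.42% higher, shares that apply to each group of the pathway named next. Ligands were scarce in both libraries. Ifng, the type II interferon, was at 62.4 CPM in Mettl14_cKO cells and 43.9 CPM in control cells among T or NK-like cells, from 61 UMIs in the Mettl14_cKO library and 33 UMIs in the control library. The 8 type I and type III ligand genes on the list had 0 to 2 UMIs each over both libraries. Of the 6 receptor genes 0 were at least 2-fold lower and 1, Ifnar2, was higher. Ifnar2 was at 16.5, 12.9, 16.8 and 22.9 CPM in Mettl14_cKO cells, against 5.01, 6.69, 2.55 and 11.1 CPM in control cells. Ifnar1, its partner, had a size of 0.98, and both chains of the type I receptor thus lay above control.

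Of 9 genes for sensors of foreign nucleic acid 3 were at least 2-fold lower and 1 higher, namely Tmem173, the STING adaptor, with a size of 1.10. Of 21 other interferon-induced genes 15 were lower and 1 higher. The lowest 5 of the pathway were the immunoproteasome subunits Psmb9 (-2.98) and Psmb8 (-2.70), the GTPase Ifi47 (-2.65), and Ifi27l2a (-2.79) and Ifi27l2b (-2.65), relatives of Ifi27. Psmb8 was at 27.4, 13.4, 37.3 and 58.3 CPM in Mettl14_cKO cells, against 242, 122, 334 and 163 CPM in control cells. Ifi27l2b was at 50.4, 57.7, 107 and 31.7 CPM in Mettl14_cKO cells, against 313, 352, 692 and 211 CPM in control cells. Both were lower in all 4 classes. Gbp8 (1.17) and Oasl1 (0.92) were the highest of this group. Oasl1 was at 9.46, 21.8, 135 and 6.53 CPM in Mettl14_cKO cells, against 5.58, 9.51, 31.2 and 7.52 CPM in control cells. Oasl1, a relative of Oasl2, was higher in the first 3 classes, where Oasl2 was lower.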

How the data were processed

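The deposited values are raw UMI counts, 1 matrix per genotype. The authors made them with Cell Ranger, for which the submitters' processing notes list 3.0.0 and the file headers 3.1.0; the notes list Seurat 3 too. Neither source names the build or the kit end. Barcodes were kept from 500 genes up and below 25% mitochondrial UMIs, so 2100 Mettl14_cKO barcodes (22.8%) and 1027 control barcodes (10.1%) were dropped. Doublets were cells with a scrublet score of 0.25 or more, 53 in the Mettl14_cKO library and 77 in the control library; the automatic threshold of scrublet marked 1 Mettl14_cKO cell and 0 control cells. After scaling each cell to 10000 counts and taking logs, both libraries were clustered together by Leiden (resolution 1, 15 neighbours, 30 components of 2000 variable genes). The variable genes left out 956 genes: members, pathway, mitochondrial, ribosomal, gasdermin and Y genes, Mettl14, Xist and Tsix. A cluster was named from at least 3 markers among its 50 leading genes, unless another class had more among its 10 leading genes; the class names are therefore rebuilt.

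CPM are the summed counts of a gene over all UMIs of its class and library, with 95% intervals from the exact Poisson distribution; ratios carry exact conditional binomial intervals. A gene counted in a comparison with at least 20 UMIs over both libraries, and as lower or higher past 2-fold. Where classes were compared within 1 library, the 20 UMIs were over both classes of that library. No test could be made with 1 library per genotype. The 36 members were all counted, and those given with levels in each class were the 6 highest and 6 lowest by mean size, the 4 highest by CPM in each library and a fixed set. Members and lists were chosen with earlier results of these data known. Depth was 89729527 UMIs in the Mettl14_cKO library and 111239295 UMIs in the control library. The sums and sizes were tested on simulated data. Promoters are from RefSeq, GRCm38.p6. The signalling genes of the pathway are not reported here one by one. Tools were scanpy 1.11.5 with leidenalg 0.10.2 on igraph 0.11.9, scikit-learn 1.9.0 under anndata 0.12.19, scipy 1.17.1 with numpy 2.4.6, matplotlib 3.10.9, and pandas 2.3.3 in Python 3.11.15.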

Additional observations from a re-analysis of the deposited data

Results flagged for a closer look

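Ifit1 was at least 2-fold higher in enteroendocrine-like cells of the Mettl14_cKO library and at least 2-fold lower in its colonocyte-like cells, the only member with at least 20 UMIs in both classes to point in opposite directions by that much among the 4 classes. In enteroendocrine-like cells it was at 29.9 CPM (23.0 to 38.1) in the Mettl14_cKO library and 3.54 CPM (1.53 to 6.97) in the control library, a log2 size of 2.77. In colonocyte-like cells it was at 41.2 CPM (35.4 to 47.7) in the Mettl14_cKO library and 85.7 CPM (82.0 to 89.6) in the control library, a log2 size of -1.04. The sizes were 3.80 apart on the log2 scale, and with 1 library per genotype the difference was not tested.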

How the results depend on the processing

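Results were recomputed under 19 alternatives to the main setting, on cell filters, doublets, clustering, thinning, scaling, pseudocount, UMI floors and classes left out, of which leaving out shallow clusters or 1 class at a time was chosen after seeing the data. The median size stayed below 0 throughout, at -2.06 to -0.73 for mainly type I, -1.78 to -0.59 for mainly type II and -1.25 to -0.76 for shared genes, while that of all genes ran from -0.02 to 0.06. The count of members at least 2-fold lower ran from 9 to 27 and higher from 1 to 3. Both lowest counts came from a pseudocount of 10 CPM, with 9 lower and 1 higher, because a larger pseudocount shrinks every size of a low gene. Ifit1bl1 turned to -0.0913 with all epithelial-like cells pooled, where the share of each class enters, and reached 1.48 at most. Ubd stayed at least 2-fold higher in all 19 (2.87 to 5.89), and Isg15 at least 2-fold lower (-3.88 to -2.13). Ifit1 (-1.74 to 0.52) and Mx1 (-0.18 to 0.56), near 0 in the main setting, changed sign. Genes under about 10 UMIs in a class and library, as several members were in enteroendocrine-like cells, allow no ranking. No paired analysis was possible because there is 1 library per genotype.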

Other observations

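The cluster called tuft-like, left out of the comparisons, held cells with and without a UMI of a tuft marker. The 43 Mettl14_cKO cells with such a UMI had 25.7 CPM of Isg15, with a type I sum of 215 CPM, and the 49 control cells with one had 177 CPM of Isg15, with a type I sum of 744 CPM. In the 6 Mettl14_cKO cells without one the type I sum was 1704 CPM, most of it Irf7 at 1231 CPM. In the 47 control cells without one the type I sum was 6916 CPM, above every epithelial-like cluster of at least 100 cells in either library, with Isg15 at 2689 CPM, Irf7 at 1253 CPM and Ifit1 at 779.8 CPM. Car1, a carbonic anhydrase of colonocytes, was at 16470.0 CPM in those Mettl14_cKO cells and 33413 CPM in those control cells.

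Myeloid-like cells, 433 in the Mettl14_cKO library and 10 in the control library, fell into a macrophage-gene cluster and a neutrophil-gene cluster. In the Mettl14_cKO library the cluster led by Apoe and Lyz2 had 105 CPM of Isg15 and 238 CPM of Bst2, and the cluster led by S100a9 and Retnlg had 29.1 CPM of Isg15 and 2.43 CPM of Bst2. Ifitm1 was at 2416 CPM in the cluster led by Apoe and at 6116 CPM in the cluster led by S100a9. The 175 B or plasma-like cells of the Mettl14_cKO library had 21.5 CPM of Ido1, where the 4 epithelial-like classes of the same library had 0 to 0.263 CPM.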
